A study of Bos taurus with 6 samples.

Results

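Classical major histocompatibility complex (MHC) class I molecules and the genes that cut, carry and load their peptides were followed in the loin muscle of calves and older bulls. The genes are BOLA, a bovine class I heavy chain, B2M, TAP1, TAP2, TAPBP, PSMB8, PSMB9 and PSMB10, with BOLA-NC1, a non-classical heavy chain, as the ninth symbol sought. A probe set was taken when the platform annotation gave it 1 gene symbol and that symbol was on this list. That rule found 10 probe sets for 8 genes, among 13292 probe sets for 9155 genes that carried 1 symbol. B2M had 3 probe sets and the other 7 genes 1 each. BOLA-NC1 had no probe set of its own and occurred only beside other class I symbols.

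The tissue was longissimus dorsi, the long muscle along the back, of male Chinese Red Steppe cattle on a standard diet, aged 24 months in 1 group and 1 month in the other. Each group had 9 bulls, whose total RNA was mixed, 3 bulls to a pool, into 3 pools, and every pool went onto 1 bovine Affymetrix array. The 24-month pools are numbered 2, 3 and 4 and the 1-month pools 1, 2 and 3. Since n counts pools of 3 bulls, each error below rests on differences between pools, and differences between the bulls within a pool cannot be seen. A value after ± is the SD of pools where marked SD, and otherwise the standard error (SE) of the fitted change.

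Class I molecules stand on nearly all nucleated cells and show peptides from the cell's own proteins to CD8 T cells. Proteasomes cut the proteins, TAP1 and TAP2 pump the peptides into the endoplasmic reticulum, and tapasin, the product of TAPBP, holds the empty heavy chain with its light chain B2M at the pump until a peptide is bound. Under interferon the immunoproteasome subunits PSMB8, PSMB9 and PSMB10 take the place of the catalytic subunits PSMB5, PSMB6 and PSMB7 in new proteasomes. In healthy human and mouse muscle the fibres themselves carry little class I, and much of it sits on vessels and on cells between the fibres.

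Probe sets with a present call on at least 3 of the 6 arrays were tested, 13204 in all. Markers of skeletal muscle fibres were present on every array, 9 of the 9 on the array. The arrays differed in quality along with age. The log2 ratio of 3' to 5' actin signal, which is higher where RNA is degraded or labelled short, was 0.24 ± 0.02 at 24 months and 0.66 ± 0.20 at 1 month (SD, n = 3 pools each, exact permutation p = 0.1). The share of present calls was 55.4% ± 0.848 at 24 months and 50.3% ± 1.88 at 1 month (SD, n = 3 pools each, exact permutation p = 0.1, the smallest that 3 against 3 arrays allow). One 1-month array, pool 1, stood apart in cell type markers, with the highest summed signal of fat cell and fibroblast markers of any array. Its actin ratio, 0.85, was the highest in a calf range that began at 0.46. Its share of present calls, 52.5%, was also the highest of the calf arrays. Results are therefore given with and without it.

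Of the 10 probe sets 9 averaged higher in the older muscle and 1, PSMB10, lower, where 55.7% of all tested probe sets averaged higher. BOLA, TAP1 and TAPBP rose, 3 of 10 probe sets, 0 fell and 7 did not pass the test (limma with Benjamini-Hochberg adjustment over 13204 probe sets, adjusted p under 0.05). The background for rises was 14.0% and for falls 4.99% of all probe sets tested. The median change of the 10 was 0.68 on the log2 scale, taken as 24 months minus 1 month, and the median over all tested was 0.06. B2M counts 3 times in that median. On the brightest probe set per gene the median of the 8 genes was 0.55. All 10 passed the filter, and 9 were called present on all 6 arrays. TAP1 passed with 4 present calls, 3 of them at 24 months. In muscle RNA taken whole, fewer cells of a type and less RNA per cell cannot be told apart.

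**Figure D1:**
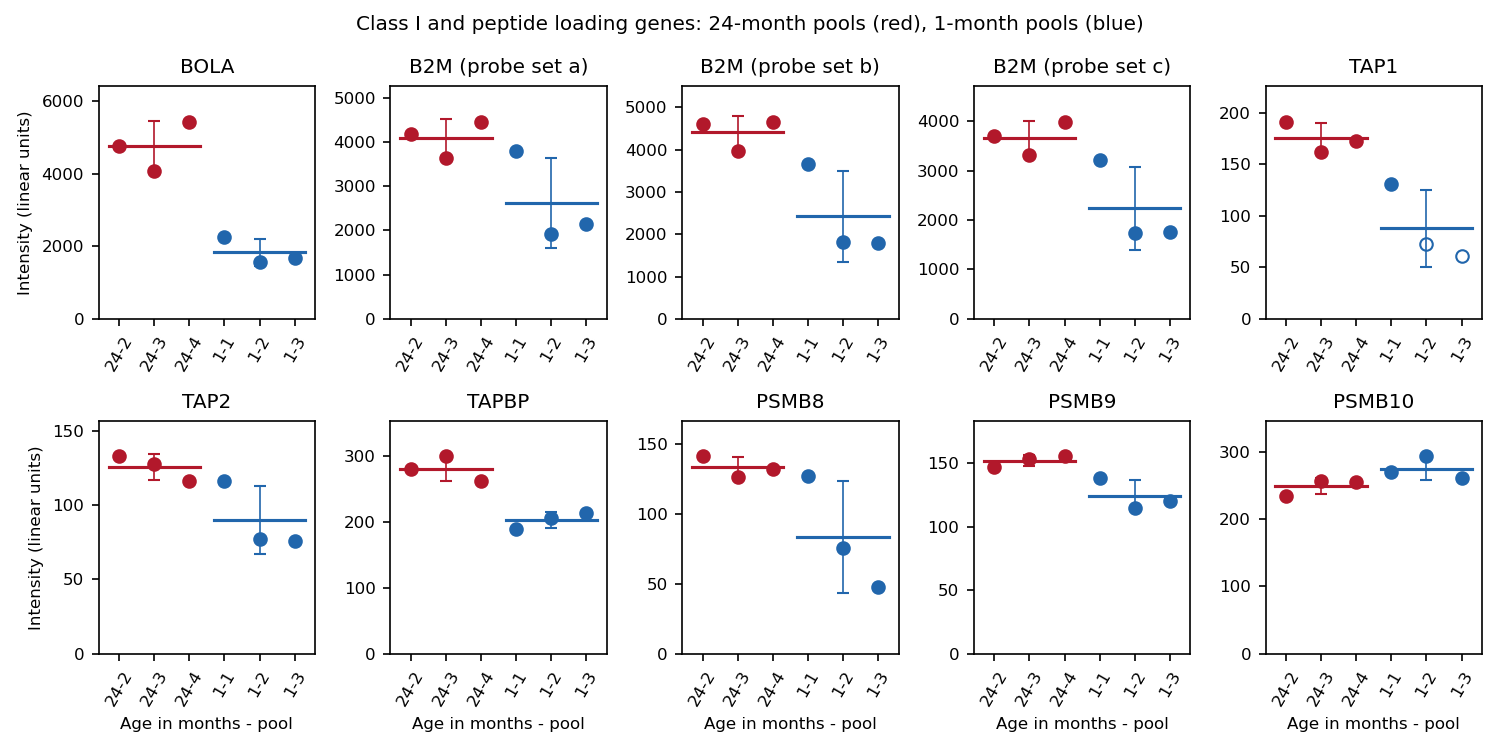
Intensity on a linear scale (vertical axes, from 0) of each of the 10 probe sets in every pool, 24-month pools 2, 3 and 4 in red on the left and 1-month pools 1, 2 and 3 in blue on the right; lines are means, whiskers the SD of 3 pools, open points absent calls. B2M probe sets a, b and c are Bt.5269.1.S1_at, Bt.5269.2.S1_a_at and Bt.5269.2.S1_at. BOLA lies between 4083 and 5437 at 24 months and between 1572 and 2265 at 1 month. The signal of 1-month pool 1 is inside the 24-month range for B2M probe set a, TAP2 and PSMB8. For PSMB10 every calf pool is above that range.

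The class I heavy chain showed the largest change of the 10 probe sets. BOLA (probe set Bt.5324.1.S1_s_at) had intensities of 4773, 4083 and 5437 in 24-month pools 2, 3 and 4, against 2265, 1572 and 1662 in 1-month pools 1, 2 and 3. Every older pool was well above every calf pool. BOLA rose by 1.38 ± 0.19 on the log2 scale (SE of the limma fit, 95% interval 0.94 to 1.82, adjusted p = 0.00651), or 2.60-fold. The call held when any of the 6 arrays was left out, with changes of 1.28 to 1.54 and adjusted p up to 0.042. The authors' second table of the same arrays gave BOLA 1453, 959 and 2643 at 24 months and 981, 699 and 759 at 1 month. There 24-month pool 3 lay just under 1-month pool 1, and the change was 1.04 ± 0.34 after quantile normalization (adjusted p = 0.0852, not called). This probe set is of the type that can match transcripts of more than 1 gene, and its gene identifier was not matched in the RefSeq gene table, so the single symbol does not fix which class I locus it measures.

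Other class I heavy-chain probe sets, looked at after the annotation was seen, carried several class I symbols and can be given no gene. There were 20 of them, of which 13 were tested. Of the 13, 3 rose and 0 fell, beside the 14.0% and 4.99% of all probe sets, with a median change of 0.99. What set some of them apart from BOLA was the difference between pools of the same age. Others varied little, such as Bt.29823.1.A1_at, with a highest to lowest ratio of 1.19 at 24 months and 1.20 at 1 month. The examples printed next are among the widest. Bt.7773.1.S1_x_at read 1826, 503 and 2310.04 in 24-month pools 2, 3 and 4, against 3056, 117 and 687 in 1-month pools 1, 2 and 3. Bt.8121.1.S1_x_at read 1179, 341 and 1499 at 24 months, against 2105, 64.6 and 412 at 1 month. In each, the ages overlapped, 24-month pool 3 was far below its neighbours, and the calf pools spanned a wider range than the older ones. Bt.7773.1.S1_x_at gave a change of 0.99 ± 1.12 (adjusted p = 0.566) and was not called.

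The highest pool exceeded the lowest by over 4-fold for 5 of the 13 at 24 months and for 6 of the 13 at 1 month. Those are 38.5% and 46.2% of them, where the same held for 0.121% and 3.63% of all tested probe sets. The largest ratios between pools of an age were 9.43 at 24 months and 32.6 at 1 month. For 6 of the 13, pools 2 and 4 lay above pool 3 at 24 months and pool 1 was highest at 1 month. The rest of the 13 did not show this order. BOLA, every B2M probe set, TAP1 and PSMB8 did. The order was picked from these values and its share over all tested probe sets was not counted, so these counts show no shared behaviour. Its calf part alone, pool 1 highest, held for 37.5% of all tested probe sets. The 13 probe sets share symbols and may bind the same transcripts, so they are not separate observations.

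Of the 3 that rose, Bt.29823.1.S1_x_at read 130.0, 157 and 429 at 24 months, against 52.9, 41.2 and 25.3 at 1 month, a change of 2.04 ± 0.43 (adjusted p = 0.0211, limma, and 0.064 without 24-month pool 3). Its direction turned in the second deposited table, where the change was -0.12. Bt.28022.1.A1_s_at was called present in 0 of the calf pools and passed the filter only through the 24-month pools, where it was high. Its test and its place among the 3 are thus not independent of the filter. Its level at 24 months was higher by at least 3.84-fold (adjusted p = 0.0324, lost without either 24-month pool 2 or 3 or 1-month pool 1 or 2, up to 0.0721). Its own calf signal exceeded the lowest present signal, so this bound equals the fitted fold, with its standard error set aside. Bt.29824.1.S1_s_at read 80.8, 35.7 and 136 at 24 months, against 8.61, 29.2 and 4.33 at 1 month, where only pool 2 was called present. Its fitted change of 1.69 ± 0.44 (adjusted p = 0.0408) includes those absent readings and was called in 2 of the 6 fits with 1 array left out. For these 3 the ages did not overlap, and 24-month pool 4 was the brightest array each time. BOLA-N, another class I heavy-chain symbol outside the list, had 1 tested probe set of its own with 799, 832 and 425 at 24 months, against 474, 360.1 and 514 at 1 month (0.55 ± 0.28, adjusted p = 0.205). It overlapped between the ages, and 24-month pool 4, the brightest for BOLA, was the dimmest older pool here. The symbol BoLA, which differs from BOLA in case alone but has another gene identifier, had 1 probe set (Bt.27760.1.S1_at), present on all 6 arrays. It read 94.9, 59.5 and 141 at 24 months, against 69.3, 99.3 and 91.3 at 1 month, so the ages overlapped, and its change was 0.11 ± 0.27 (adjusted p = 0.813).

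**Figure D2:**
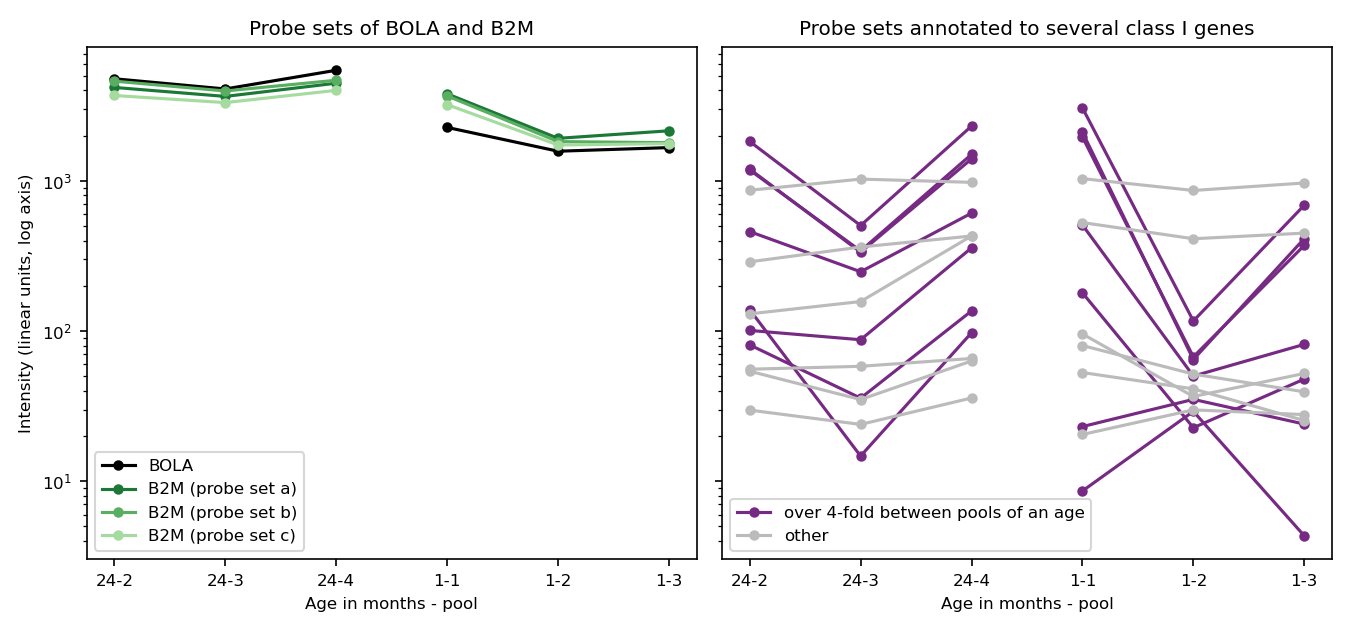
Intensity per pool on a log axis, 24-month pools on the left and 1-month pools on the right of each panel. The left panel holds BOLA and the 3 B2M probe sets, which stay within a narrow band at 24 months, and the right panel the 13 tested probe sets annotated to several class I genes, in purple where pools of 1 age differ by over 4-fold, up to 9.43 at 24 months and 32.6 at 1 month.

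B2M, the light chain shared by all class I molecules, was measured by 3 probe sets with changes of like size. The first, Bt.5269.1.S1_at, read 4180, 3642 and 4460 at 24 months, against 3793, 1916 and 2150.3 at 1 month. Here 1-month pool 1 lay inside the 24-month range, and the change of 0.70 ± 0.26 did not pass (95% interval 0.08 to 1.32, adjusted p = 0.104). On Bt.5269.2.S1_a_at the values were 4602, 3958 and 4668 at 24 months and 3670.04, 1823 and 1792 at 1 month. On Bt.5269.2.S1_at they were 3694, 3313 and 3998 at 24 months and 3213, 1729 and 1766 at 1 month. In both of these every older pool was above every calf pool, with 1-month pool 1 close behind, and neither change was called (0.94 ± 0.28, adjusted p = 0.0614, and 0.77 ± 0.25, adjusted p = 0.0768). Without 1-month pool 1 all 3 passed, at 1.00 ± 0.15, 1.28 ± 0.13 and 1.06 ± 0.14 (adjusted p = 0.0113, 0.00658 and 0.00884). In the second table the 3 changes were 0.85, 1.17 and 0.57 after quantile normalization, higher at 24 months each time, with adjusted p from 0.0517 to 0.205.

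The peptide pump has the subunits TAP1 and TAP2, which work as a pair. TAP1 (Bt.20416.1.S1_at) read 192, 162 and 173 at 24 months, against 131, 72.2 and 61.2 at 1 month. The ages did not overlap, but only pool 1 was called present at 1 month (the deposited detection p was 0.0376 there and 0.0676 in each of pools 2 and 3). TAP1 rose by 0.94 ± 0.24 (adjusted p = 0.0401), or 1.91-fold. Without 1-month pool 1 the change was 1.21 ± 0.14 (adjusted p = 0.0075), and in each fit that left out one of the other arrays it was not called (adjusted p up to 0.139). TAP2 (Bt.6126.1.S1_at) read 133, 127 and 116 at 24 months, against 116, 76.9 and 76.0 at 1 month. Pool 1 of the calves lay just above the lowest older pool, and pools 2 and 3 were clearly lower. Its change of 0.44 ± 0.17 was not called (95% interval 0.03 to 0.85, adjusted p = 0.122), and without 1-month pool 1 it was 0.61 ± 0.12 and passed (adjusted p = 0.0242).

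TAPBP, the tapasin gene, was the one that rose without 1-month pool 1 standing high. Bt.21678.1.S1_at read 281, 300.1 and 263 at 24 months, against 189, 207 and 213 at 1 month. The ages did not overlap and pool 1 was the lowest calf pool. TAPBP rose by 0.44 ± 0.12 (adjusted p = 0.0477), or 1.36-fold. The call lay close to the threshold: of the 6 fits with 1 array left out it held in 1, without 1-month pool 3 (adjusted p = 0.0381), and the others reached 0.178. In the second table the pools overlapped, with 115, 60.8 and 86.5 at 24 months and 66.0, 93.2 and 94.7 at 1 month, and the change was 0.07 ± 0.23 after quantile normalization.

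Among the immunoproteasome subunits, which interferon brings in, 0 of 3 probe sets passed the limma test, and 1, PSMB8, had an unadjusted p under 0.05. PSMB8 (Bt.15865.1.S1_at), the subunit that replaces PSMB5, read 141, 127 and 133 at 24 months, against 127, 75.4 and 48.0 at 1 month. Calf pool 1 lay within the older range and calf pool 3 was the lowest. The change was 0.66 ± 0.28 (95% interval 0.0033 to 1.33, adjusted p = 0.139), and without 1-month pool 1 it was 0.97 ± 0.18 and passed (adjusted p = 0.0191). PSMB9 (Bt.20532.1.S1_at), which replaces PSMB6, read 147, 153 and 155 at 24 months, against 139, 114 and 120.3 at 1 month. The ages did not overlap, the gap was small, and the change of 0.26 ± 0.12 was not called (95% interval -0.03 to 0.55, adjusted p = 0.181). PSMB10 (Bt.3624.1.S1_at), which replaces PSMB7, went the other way, with 236, 258 and 256 at 24 months, against 270.2, 294 and 261 at 1 month. Every calf pool stood above every older pool, by a narrow margin, and the change of -0.13 ± 0.12 was not called (95% interval -0.41 to 0.15, adjusted p = 0.471).

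Each immunoproteasome subunit was set against the constitutive subunit whose place it takes, within the same array. The difference PSMB9 minus PSMB6 was higher at 24 months by 0.49 on the log2 scale, with no overlap between the ages (2-sided exact permutation p = 0.1, adjusted p = 0.3 over 3 pairs). It was 0.15 without 1-month pool 2, where PSMB6 was high, and 0.47 to 0.66 without any one of the other arrays. PSMB8 minus PSMB5 differed by 0.24 (exact permutation p = 0.6, adjusted p = 0.7) and PSMB10 minus PSMB7 by 0.06 (exact permutation p = 0.7, adjusted p = 0.7). With 3 arrays per age none of the 3 could pass, since 0.1 is the smallest p. Of the constitutive subunits themselves 0 of 3 passed the limma test, 1 at an unadjusted p under 0.05. That one, PSMB5, gave 0.43 ± 0.14 (adjusted p = 0.0732), PSMB6 -0.23 ± 0.25 and PSMB7 -0.19 ± 0.16. In 1-month pool 2 PSMB6 stood at 1956, against 1148 and 1007 in pools 1 and 3, the widest gap among the 3 constitutive subunits in calves.

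**Figure D3:**
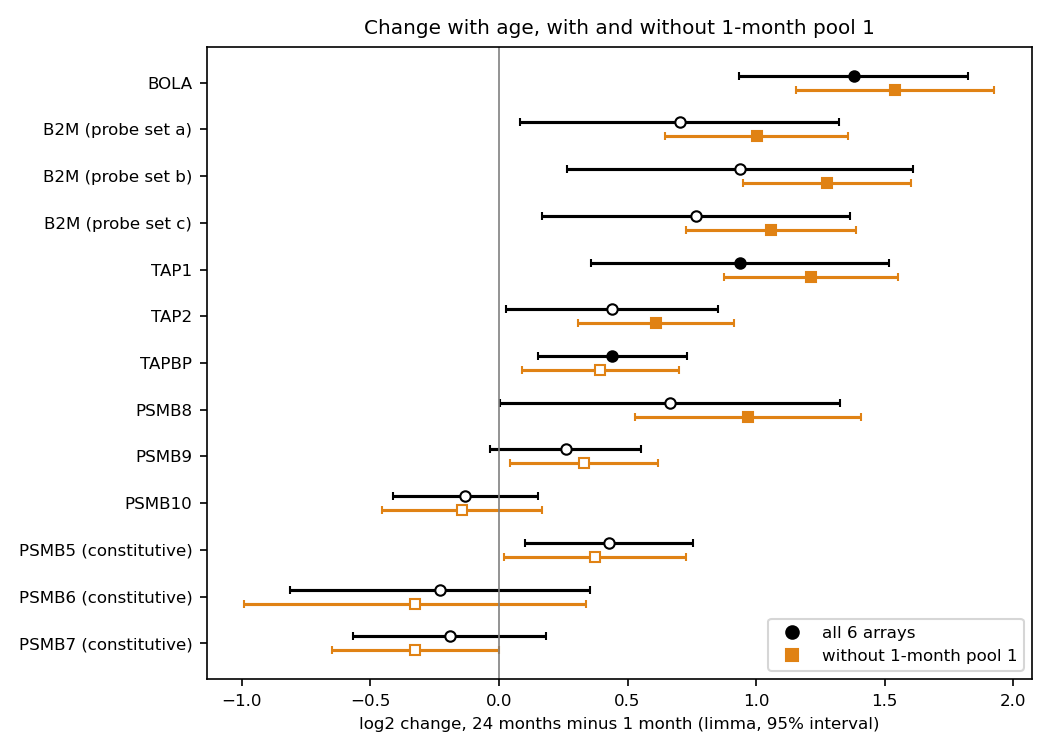
Change on the log2(intensity + 16) scale, 24 months minus 1 month, with 95% intervals from limma, for the 10 probe sets and the 3 constitutive subunits; black circles use all 6 arrays and orange squares leave out 1-month pool 1, filled where the adjusted p is under 0.05. BOLA is highest at 1.38, PSMB10 is below 0 at -0.13, and B2M, TAP2 and PSMB8 become filled without pool 1.

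The calf pools varied more than the older ones for most of these genes. The median SD of the 10 probe sets was 0.10 at 24 months and 0.39 at 1 month on the log2 scale, beside 0.12 and 0.26 over all tested probe sets. The SD was larger at 1 month for 9 of the 10, and for 80.6% of all tested. In 1-month pools 2 and 3, 9 of the 10 lay below every 24-month pool. That count leaves out the calf pool in which most of these probe sets were high. Its share over all tested probe sets was not counted, so it cannot be read as particular to these genes. Pool 1 was the highest calf pool for 8 of the 10, where 37.5% of all tested probe sets had it highest, and it exceeded the mean of the other calf pools by a median of 0.67 (range -0.14 to 1.02), beside 0.03 over all. Without it 7 of the 10 passed the test as rises, namely BOLA, the 3 B2M probe sets, TAP1, TAP2 and PSMB8, beside a background of 14.5%. Counted per gene on the brightest probe set, 5 of 8 passed. The median change of the 10 was then 0.98, that of the 8 genes on the brightest probe set 0.79, and that of all tested 0.09.

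The ages also differed by position alone. All 3 older pools lay above all 3 calf pools for 6 of the 10 probe sets, where 27.2% of all tested did so. B2M supplies 3 of the 10, and on the brightest probe set per gene it was 4 of 8. The older pools lay below for 1, PSMB10, where 16.1% of all tested did so. In the authors' second table, the change was positive for 9 of the 10, that is higher at 24 months and PSMB10 lower, with 0 of 10 called after quantile normalization (limma, 5 at an unadjusted p under 0.05) against a background of 7.62% for rises. As that table was deposited, 0 were called and 2 had an unadjusted p under 0.05, against 4.98%. In that table the ages overlapped for each of the 10 probe sets. Its median over the 10 was 0.63 after quantile normalization, and -0.01 over all tested.

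Markers of other cells moved with pool 1 as well. Genes of all leukocytes were higher in pool 1 than in pools 2 and 3 for 8 of 8, and their summed intensity was 870 to 950 at 24 months, against 1024 in 1-month pool 1 and 645 and 578 in 1-month pools 2 and 3. The sum for macrophages and dendritic cells, 10 tested genes of 12 on the array, was 1130 to 1235 at 24 months, against 1704 in 1-month pool 1 and 906 and 654 in the other calf pools. Fibroblast markers summed to 5817 to 7523 at 24 months, against 24762 in 1-month pool 1 and 6861 and 8255 in the other calf pools. Fat cell markers summed to 716 to 1000 at 24 months, against 2394 in 1-month pool 1 and 149 and 539 in the other calf pools. Pool 1 was thus the highest array of all for each of these 4 sums. T and NK cell genes, 5 tested of 16 on the array, ran from 457 to 486 at 24 months and from 364 to 413 at 1 month, and CD2, CD4 and CD8B did not pass the filter. Of the leukocyte list CORO1A, an actin-binding protein of white blood cells, rose by 0.55 ± 0.15 (adjusted p = 0.0458), and ITGB2, the beta chain of their integrins, by 0.73 ± 0.19 (adjusted p = 0.0413). Both calls were lost without each array other than 1-month pool 1 (adjusted p up to 0.152 and 0.154). Without that pool 6 of the 8 rose, beside 14.5% of all tested probe sets. In the macrophage, T cell and B cell lists 0 genes passed the limma test with all 6 arrays (0 at an unadjusted p under 0.05), and their smallest adjusted p-values were 0.193, 0.196 and 0.195. Vessel markers went down with age instead: of 5 tested endothelial genes 0 rose and 2 fell, PECAM1 (-0.70 ± 0.19, adjusted p = 0.0428) and TEK (-0.80 ± 0.18, adjusted p = 0.0272), calls lost without any one of the 24-month pools (and, for PECAM1, without 1-month pool 1), and their sum was 936 to 1069 at 24 months and 1460 to 1784 at 1 month. Muscle fibre markers had 5 rises and 0 falls among 9, with sums of 76228 to 77625 at 24 months and 54409 to 55582 at 1 month. Fibroblast markers had 1 rise and 0 falls among 8, with 7 of the 8 lower at 24 months. Fat cell markers had 1 rise and 0 falls among 3. Over all tested probe sets 14.0% rose and 4.99% fell. The part of these cells in the class I results was not tested.

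**Figure D4:**
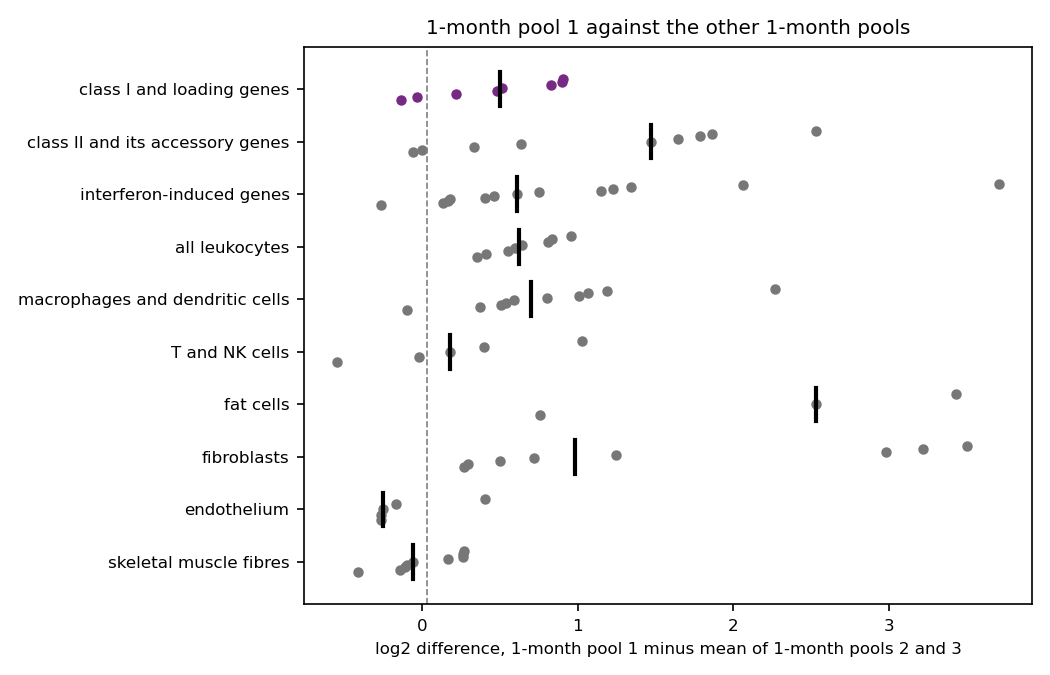
Difference on the log2 scale between 1-month pool 1 and the mean of 1-month pools 2 and 3, 1 point per gene (brightest tested probe set), by gene list; bars are list medians and the dashed line the median of all tested probe sets, 0.03. The 8 class I and loading genes run from -0.14 for TAPBP to 0.91 for PSMB8, the leukocyte genes are all above the dashed line, and the muscle fibre genes scatter around it.

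The actin ratio moved with age and was highest in pool 1 too. With it as a covariate the changes were 1.85 ± 0.34 for BOLA (adjusted p = 0.0328), 1.99 ± 0.39 for B2M on Bt.5269.2.S1_a_at (adjusted p = 0.0376), 1.91 ± 0.30 for TAP1 (adjusted p = 0.0256) and 1.90 ± 0.24 for PSMB8 (adjusted p = 0.0164). These 4 of the 10 passed, and TAPBP, at 0.26 ± 0.23 (adjusted p = 0.520), did not. The actin ratio did not overlap between the ages (0.22 to 0.26 at 24 months, 0.46 to 0.85 at 1 month). This fit therefore extrapolates from the ratio's spread within each age, chiefly among the calf pools. It cannot separate age from the ratio, and the larger changes are not a corrected size of the rise. In the second table the same ratio was -0.22 ± 0.05 at 24 months and -0.24 ± 0.07 at 1 month (SD, n = 3 pools each, exact permutation p = 0.8). All 9 member probe sets that were higher at 24 months with the main table were higher there as well. However, 0 of the 10 were called there, and the ages overlapped for each of them. TAPBP changed there by only 0.07 ± 0.23 after quantile normalization. Both tables hold the same arrays, so a like ratio in the second cannot show that RNA quality was equal between the ages. The part of RNA quality in the class I results was not tested.

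The wider pathway was read on the brightest tested probe set of each gene. Each count below stands beside 14.0% rises and 4.99% falls over all tested probe sets. Among class I-like chains that also pair with B2M, FCGRT, the heavy chain of the neonatal Fc receptor that carries maternal antibody, went against the heavy chain BOLA. It read 973, 1059.6 and 1140.2 at 24 months, against 2460.5, 2739 and 1868 at 1 month. The ages were far apart, and FCGRT fell by 1.13 ± 0.17 (adjusted p = 0.00862), a call held in 6 of 6 fits with 1 array left out. With the actin ratio as a covariate the change was -0.68 ± 0.30 and was not called (adjusted p = 0.206), nor was it called with pool number as a replicate block. CD1B, a lipid-presenting chain, was called present in 0 of the calf pools and passed the filter only through the 24-month pools. It was higher at 24 months by at least 1.40-fold, the error of the fit aside, and did not pass (adjusted p = 0.0682). The third on the array, MR1, did not pass the filter.

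Partners of loading in the endoplasmic reticulum showed 1 rise and 0 falls (2 at an unadjusted p under 0.05) among 6 tested, with a median of -0.23. Over all tested probe sets 14.0% rose and 4.99% fell. The rise was TAPBPL, a tapasin relative that edits peptides, with 101, 104 and 98.6 at 24 months, against 61.1, 73.7 and 56.7 at 1 month (0.56 ± 0.13, adjusted p = 0.0291). It did not overlap between the ages, but was not called without any one of the 24-month pools (adjusted p up to 0.12) or in the second table (0.18). The general chaperones lay on the other side of 0 without a call: PDIA3, the disulphide isomerase that joins tapasin, at -0.66 ± 0.21 (adjusted p = 0.0717), CANX, calnexin, at -0.36 ± 0.14 (adjusted p = 0.122), and CALR, calreticulin, at -0.09 ± 0.19.

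Of 5 cytosolic peptidases that trim peptides, 1 rose and 0 fell, beside 14.0% and 4.99% of all tested probe sets. NRDC, nardilysin, rose by 0.56 ± 0.15 (adjusted p = 0.0459), a call kept only without 1-month pool 1 among the 6 fits with 1 array left out (up to 0.167). Among 6 tested proteasome activators and assembly factors 1 rose and 1 fell. PSMG2, an assembly chaperone, rose by 0.74 in the main table (adjusted p = 0.0244), and its partner PSMG1 fell by 0.70 (adjusted p = 0.0395). The direction of PSMG2 turned in the second table, where its change was -0.91 (adjusted p = 0.0518). Both calls were lost without any one of the 24-month pools, and that of PSMG1 also without 1-month pool 2 (adjusted p up to 0.11 and 0.142). PSME1 and PSME2, the activator subunits induced by interferon, gave 0.12 ± 0.28 and 0.24 ± 0.25 without a call.

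Of 13 tested transcription regulators of class I and interferon signalling genes, 0 passed the limma test with all 6 arrays, and 2 had an unadjusted p under 0.05. The nearest was RFX5, a subunit of the factor that binds class I and class II promoters, at 0.51 ± 0.14 (adjusted p = 0.0505). Without 1-month pool 1, IRF9 and NFKB1 passed as rises. Of 13 tested interferon-induced genes 2 rose, a share near the 14.0% of all tested probe sets, and 0 fell, with a median of -0.09. Without 1-month pool 1, which was the highest calf pool for 11 of the 13, the median was 0.32 and the count of rises again 2. CXCL10, a chemokine that draws T cells, was called present in 0 of the calf pools and passed the filter only through the 24-month pools, where it was high. Its test and its place among the 2 are thus not independent of the filter. Its level at 24 months was higher by at least 2.63-fold, a bound equal to the fitted fold, the error of the fit aside (adjusted p = 0.00452, called in 6 of 6 fits with 1 array left out). GBP1, a guanylate-binding protein, rose by 1.02 ± 0.21 (adjusted p = 0.0203), a call lost without any one of the 24-month pools (up to 0.0832). Where a present call on all 6 arrays was required, 0 interferon-induced genes were called. MX1 and ISG15, which answer type I interferon, gave -0.12 ± 0.61 and 0.04 ± 0.33, and each was brightest in 1-month pool 1.

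Class II and its accessory genes, which present peptides taken up from outside the cell, had 5 rises among 9 tested and a median of 1.53. Over all tested probe sets 14.0% rose, and the median was 0.06. BOLA-DMB, a chain of the class II peptide exchanger, rose by 1.55 ± 0.25 (adjusted p = 0.00998) and its partner BOLA-DMA by 1.11 ± 0.24 (adjusted p = 0.0240). BOLA-DRB3 rose by 1.95 ± 0.50 (adjusted p = 0.0392) and BOLA-DQB1 by 3.12 ± 0.73 (adjusted p = 0.0290). The 5 rises became 0 without 24-month pool 2 or 4, 1 without 24-month pool 3 and 3 without 1-month pool 2, and in the second table they were 2. Where a present call on all 6 arrays was required, the rises were 2.

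Against RefSeq's table of bovine genes (assembly ARS-UCD2.0), 7 of the 8 genes were matched by gene identifier and 5 of them lie on the same chromosome. PSMB8, TAP1 and PSMB9 are direct neighbours there in the order of protein-coding genes, TAP2 lies on the side of PSMB8 with 1 gene between, and TAPBP lies elsewhere on that chromosome. B2M and PSMB10 each lie on another. Among the 3 neighbours the changes were 0.66 for PSMB8, 0.94 for TAP1 and 0.26 for PSMB9, of which TAP1 alone was called.

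Across the 6 arrays the mean standardized level of the 8 genes (brightest probe set each) was 0.54 to 0.62 in the 24-month pools, 0.04 in 1-month pool 1, and -0.77 and -1.02 in 1-month pools 2 and 3. Correlation with that profile ran from 0.73 for TAPBP to 0.99 for TAP1, and was -0.62 for PSMB10. Each of the 8 genes is part of the profile it was compared with. Their correlations are thus partly built in and are no test of whether they change together. Outside the list, the genes closest to the profile over these 6 arrays were ATXN10 (ataxin 10, r = 0.996), CORO1A (r = 0.995), TP53BP1, a protein of the DNA damage response (r = 0.995), ADHFE1, an iron-dependent alcohol dehydrogenase (r = 0.992), and DGAT2, which makes triglycerides (r = 0.992). These values describe 6 arrays of 2 ages, and any gene high in the older pools and intermediate in pool 1 scores well.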

How the data were processed

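The main deposited table, named for the program dChip, holds linear intensity values that the authors normalized across arrays, with a detection call per array. It also holds a deposited detection p-value for the 1-month arrays. A second deposited table holds linear intensity of the same arrays on an unstated scale. Per the file headers, the method behind these values is unnamed (not given in the sources used here). Columns were matched to pools by title.

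The age effect was fitted with limma 3.58.1 in R 4.3.3 (lmFit and eBayes, 2-sided) on log2(intensity + 16), over all 13204 probe sets called present on at least 3 of 6 arrays, after leaving out 112 control probe sets, and adjusted by Benjamini-Hochberg. Log2 medians of the arrays differed by 0.0303, so no further normalization was applied. Folds on this scale understate changes of dim probe sets. The fit was tested on simulated data. Single values were compared by exact permutation in SciPy 1.17.1. At least N-fold means against the higher of the lowest present signal and the probe set's own value, per array, before the error of the fit.

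Every member probe set is named, and of each pathway, leukocyte and endothelial list the called genes (up to 4 by smallest p). Called fibroblast, fat cell and muscle fibre genes are counted without names. Other genes named beside a list were chosen after their values were seen. Members and lists were chosen with earlier results of these data known. Alternatives were other normalizations, offsets, filters and variance models, the second table, the actin ratio, the pool number as a block, the most changed probe set per gene and each array left out. Precision is limited by having 3 arrays per age.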

Additional observations from a re-analysis of the deposited data

How the results depend on the processing

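Across 169 alternative fits of the 10 probe sets the sign was that of the full fit in 169. The call was the same in 137, lost in 25 and gained in 7. BOLA kept its call in 14 of 17 alternatives, TAP1 in 8 of 16 and TAPBP in 3 of 17. Of the 10 probe sets, 3 rose in the full fit. The count was 1 with present calls required on all 6 arrays, where TAP1 was not tested. It was 0 in the second table, quantile normalized or as deposited, and 1 to 7 with 1 array left out. The 7 came without 1-month replicate 1, and counts of 1 without 1-month replicate 2 or any 24-month replicate. Counting the probe set with the symbol BoLA, an alternative chosen after seeing the data, left 3. With pool number as a replicate block 0 of 10 were called, and BOLA gave 1.44 (adjusted p = 0.0556). Nothing in the labels pairs the pools, and deviations of same-numbered pools correlated at -0.18 (number 2) and 0.04 (number 3).

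Over the whole array 1854 probe sets rose. The count was 1006 in the second table after quantile normalization, 658 as deposited, 114 with the replicate block, 655 with the actin covariate and 432 to 2451 with 1 array left out. Falls numbered 659, and 1269 with no filter on calls, 15 with the replicate block, 341 with the actin covariate and 94 to 1025 with 1 array left out. With 1 array left out, the within-array difference PSMB8 minus PSMB5 ran from -0.0082 (without 1-month replicate 3) to 0.59, PSMB9 minus PSMB6 from 0.15 (without 1-month replicate 2) to 0.66, and PSMB10 minus PSMB7 from -0.0097 (without 1-month replicate 2) to 0.18. The causes were not tested. Signal near the detection limit bounds what can be said of TAP1 at 1 month.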
